A study of Mus musculus with 5 samples.

Results

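The 8 genes described here encode receptors, or receptor subunits, for cytokines that govern the production of myeloid cells and their progenitors. *Csf1r*, *Csf2ra*, *Csf2rb*, *Csf3r*, *Il3ra*, *Flt3*, *Kit* and *Il6ra* were taken by symbol from the GENCODE M21 annotation of the mouse assembly GRCm38, out of 21755 protein-coding genes on the autosomes and the X chromosome. For each gene, the CpG methylation level was measured in the promoter (1000 bp on each side of the annotated gene start), in the gene body and in consecutive 1 kb windows from the start to the end of the gene. The level is the percentage of methylated calls among all calls in a region.

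AML blasts from bone marrow of C57BL/6 mice were profiled by whole-genome bisulfite sequencing in 5 libraries, which the series describes as biological replicates. Every library carried Cebpa-/p30, a deletion on one *Cebpa* allele and a mutation on the other that leaves the short p30 isoform of this myeloid transcription factor. Tet2 was intact in 2 libraries (Tet2+/+, numbers 23 and 24) and deleted in 3 (Tet2-/-, numbers 5, 7 and 8), so that the comparison asks how the loss of TET2 changed methylation in leukemia of this genotype. Per the methods of the study, donor marrow was transplanted into lethally irradiated female recipients before Mx1-Cre, driven by an interferon-inducible promoter, was activated with Poly(I)-Poly(C), and live donor-derived cells without T cell, B cell and erythroid surface markers were sorted. The labels give no age, sex or batch.

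These receptors pass signals for survival, division and maturation into blood progenitors. CSF1R, FLT3 and KIT are receptor tyrosine kinases that bind CSF1 or IL34, FLT3 ligand and stem cell factor. The receptors for GM-CSF and IL3 pair a ligand-binding subunit, CSF2RA or IL3RA, with the shared subunit CSF2RB, while CSF3R binds G-CSF and IL6RA hands IL6 to the signal transducer IL6ST. FLT3 and KIT mark early progenitors, CSF1R monocytes and macrophages and CSF3R granulocytes, and activating mutations of *FLT3*, *KIT* and *CSF3R* occur in human myeloid leukemia. TET2 oxidizes methylated cytosine as a step towards its removal, and bisulfite sequencing reads both the methylated and the hydroxymethylated base as methylated.

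The libraries held between 63111735 and 110752967 calls, or 2.96 to 5.19 calls per CpG. Over all CpGs the Tet2+/+ libraries reached 67.3% and 62.3% methylation, below the range of 68.4% to 74.8% for Tet2-/-. Relative to the library mean, the part of the last exon of *Tet2* that is exon 3 of Tet2-206 (chr3:133465847-133468190) had a coverage of 0.942 and 1.29 where *Tet2* was intact and of 0.053 to 0.0737 where it was deleted, which matches the genotypes in the labels. Mean promoter methylation of 13 myeloid marker genes was 17.1% and 18.6% in Tet2+/+ and 18.1% to 23.3% in Tet2-/- libraries. For 6 T cell markers it was 66.3% and 68.2% against 78.9% to 81.1%, for 5 B cell markers 49.7% and 51.4% against 52.9% to 65.0%, and for 4 erythroid markers 35.0% and 36.6% against 52.6% to 54.5%. Markers of mast cells and basophils (5 genes) had 50.2% and 62.7% against 64.4% to 69.5%, and non-hematopoietic markers (5 genes) 41.7% and 44.5% against 44.5% to 52.2%. For 4 pan-hematopoietic markers the levels were 21.4% and 24.02% against 21.2% to 26.2%. The part of the genome-wide shift or of other cells in the results on the receptors was not tested.

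At the promoters, no receptor gene passed the test. None of the 8 promoters reached an adjusted p of 0.05 in the edgeR quasi-likelihood test across 19455 promoters, where 1.06% were called higher in Tet2-/- blasts. At an unadjusted p under 0.05 there were 3 of 8, *Csf2ra*, *Flt3* and *Il3ra*, against 18.1% of all promoters. limma called 0, where it called 0.905% of all promoters higher. The likelihood ratio test of edgeR called 2, *Csf2ra* and *Il3ra*, against 5.35% of all called higher. In 4 promoters every Tet2-/- library lay above both Tet2+/+ libraries, against 32.8% of all promoters. The median difference was 6.09 percentage points for the 8 receptors and 2.22 for all promoters tested.

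**Figure D1:**
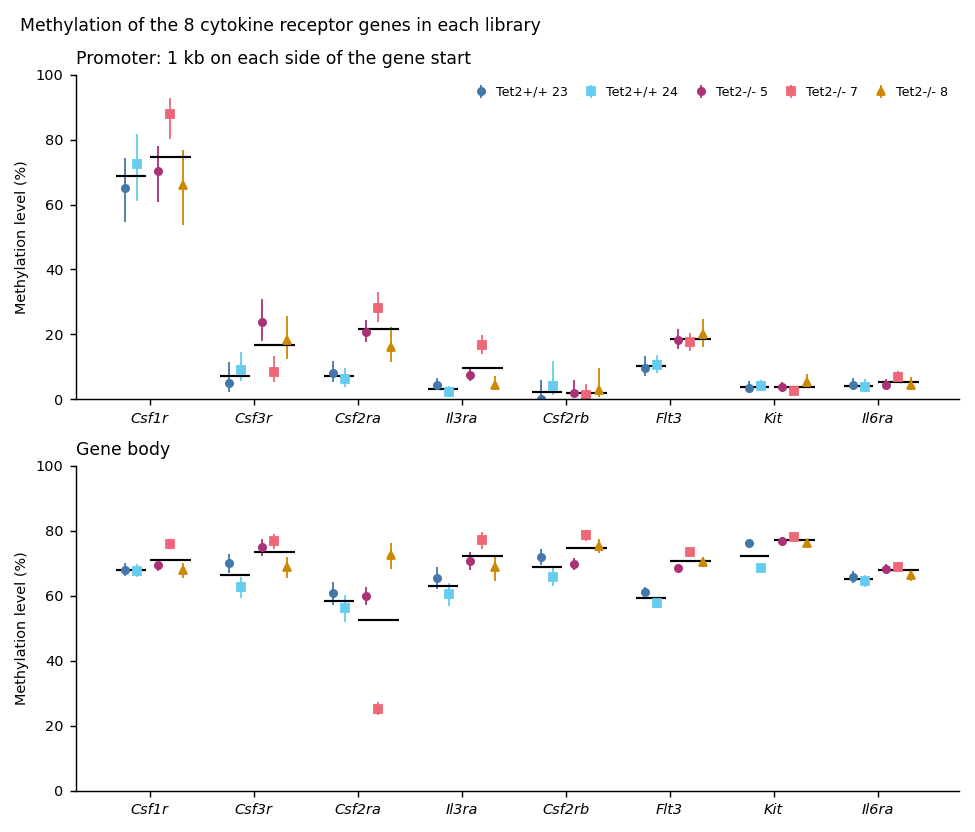
Methylation level (%, vertical axes) of the promoter (upper panel) and the gene body (lower panel) of each receptor gene in the 5 libraries, with 95% Wilson intervals of the calls as bars through the points and group means as black lines. Among promoters *Csf1r* alone sits above 60% in all libraries, and among gene bodies Tet2-/- library 7 stands apart at *Csf2ra* with 25.2%.

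Methylation of 7 of the 8 promoters was low in Tet2+/+ blasts. Mean levels in Tet2+/+ blasts were 2.14% at *Csf2rb*, 3.35% at *Il3ra*, 3.78% at *Kit*, 4.13% at *Il6ra*, 7.11% at *Csf2ra*, 7.21% at *Csf3r* and 10.2% at *Flt3*, against 68.8% at *Csf1r*. In that order *Il3ra*, *Kit* and *Il6ra* differed from each other by less than the SD of *Il3ra*, and *Csf2ra* and *Csf3r* by less than either SD. In Tet2-/- blasts the means were 2.10% at *Csf2rb*, 9.63% at *Il3ra*, 3.87% at *Kit*, 5.32% at *Il6ra*, 21.7% at *Csf2ra*, 16.9% at *Csf3r*, 18.7% at *Flt3* and 74.7% at *Csf1r*. The CpG content of the promoters spanned 20 CpGs at *Csf1r*, 21 at *Csf2rb*, 40 at *Csf3r*, 88 at *Csf2ra*, 91 at *Flt3*, 102 at *Il6ra*, 128 at *Kit* and 133 at *Il3ra*, with a median of 62 over all promoters.

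*Csf2ra*, the ligand-binding subunit for GM-CSF, had the largest promoter difference of the 8 (chr19:61227429-61229429, minus strand, gene ENSMUSG00000059326.7). Among the controls, library 23 had 8.05% and library 24 had 6.16%, while Tet2-/- libraries 5, 7 and 8 had 20.8%, 28.2% and 16.2%, from 173 to 519 calls. All 3 Tet2-/- libraries were thus above both controls. The difference of 14.6 points had an adjusted p of 0.0550 in the edgeR quasi-likelihood test and 0.0072 in its likelihood ratio test, and the exact permutation p was 0.1, the smallest that 10 splits can give. In edgeR the adjusted p was 0.0838 on thinned counts, 0.174 with 500 bp on each side and 0.136 without library 7. With the median of each library subtracted it was 0.233 in limma. A larger difference was seen at 10.2% of all promoters tested. With 2000 bp on each side of the start the difference was -0.02 points (adjusted p = 0.924, edgeR), a span that takes in the part of the gene where library 7 stands apart, described with the gene body. Around the start of another transcript, Csf2ra-207, which lies 1053 bp into the gene, it was -8.68 points. There library 7 had 7.10% on 1155 calls, and the other libraries had 35.6% to 48.3%.

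The other promoters differed less, or with more spread. At *Flt3* (chr5:147399489-147401489, minus strand), the level was 9.83% and 10.5% in Tet2+/+ and 18.3%, 17.6% and 20.1% in Tet2-/- blasts, a gap of 8.47 points with little spread inside either group (adjusted p = 0.162, edgeR). *Il3ra* (chr14:14345275-14347275, plus strand) had 4.34% and 2.36% against 7.66%, 16.6% and 4.58% (adjusted p = 0.182, edgeR), so that library 8 was barely above the control with the higher level. The difference of 6.28 points was 2.77 without library 7 and 3.02 with 500 bp on each side. The promoter of *Csf3r* (chr4:126023550-126025550, plus strand) had 5.21% and 9.20% against 23.95%, 8.54% and 18.2%, with library 7 inside the range of the controls (adjusted p = 0.296, edgeR). Its difference of 9.69 points was 0.35 points with 500 bp on each side and 0.96 points on CpGs called in all 5 libraries.

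The remaining starts were nearly alike in the genotypes. *Kit* (chr5:75573916-75575916, plus strand) had 3.47% and 4.08% in Tet2+/+ and 3.73%, 2.49% and 5.38% in Tet2-/- blasts, on 432 to 922 calls. *Il6ra* (chr3:89912196-89914196, minus strand) had 4.45% and 3.81% against 4.598%, 6.86% and 4.502%. *Csf2rb* (chr15:78324752-78326752, plus strand) had 0% and 4.29% against 2.11%, 1.36% and 2.82%, on 61 to 147 calls. These 3 promoters differed between groups by 0.09, 1.18 and -0.05 points, each with an adjusted p above that of the genes named before them (0.976, 0.681 and 0.945, edgeR).

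*Csf1r* differed from the other 7 in that its annotated start (chr18:61099598-61101598, plus strand) belongs to the non-coding transcript Csf1r-206. There the level was 65.1% and 72.5% in Tet2+/+ and 70.2%, 87.7% and 66.1% in Tet2-/- blasts (adjusted p = 0.691, edgeR). The start of the coding transcript Csf1r-201 lies 4974 bp downstream, and around it the levels were 32.5% and 29.1% against 31.4%, 29.9% and 28.2%, which overlapped. Between 250 and 500 bp past this coding start 7 CpGs were at 0% to 2.0% in all 5 libraries. Monocyte expression of *Csf1r* starts at this promoter and uses an enhancer in the intron that follows it, as background.

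Within the promoters, most differences lay away from the start itself. The 2000 bp were divided into 250 bp bins, chosen after the levels had been seen and described without a test, and bins with under 10 calls in any library were left out. In the bin that begins at the start, levels were between 0% and 4.8% in every library for *Csf2ra*, *Csf2rb*, *Csf3r*, *Flt3*, *Il3ra*, *Il6ra* and *Kit*.

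At *Flt3* both edges were higher in Tet2-/- blasts. From 1000 to 750 bp upstream the levels were 6.5% and 31.8% in Tet2+/+ and 69.2%, 75.0% and 78.9% in Tet2-/- blasts, on 19 to 52 calls. The next bin, 750 to 500 bp upstream, had 2.2% and 10.3% against 19.6%, 40.5% and 40.0%. On the other side, 500 to 750 bp into the gene, 32.1% and 31.8% stood against 47.1%, 69.7% and 40.4%. In the 250 bp on either side of the start, mean levels were at most 1.7% in either group. With the promoter set to 500 bp on each side, the difference at *Flt3* was accordingly -1.03 points (adjusted p = 0.835, edgeR).

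*Csf2ra* had its differences on the upstream side. Between 750 and 500 bp upstream the levels were 21.95% and 25.8% in Tet2+/+ and 66.1%, 75.0% and 90.0% in Tet2-/- blasts, on 10 to 56 calls. In the bin from 500 to 250 bp upstream they were 33.3% and 11.6% against 50%, 87.9% and 60.9%. Closer in, from 250 bp upstream to the start, 50.9% in library 7 stood apart from 16.1% and 4.7% in the other Tet2-/- libraries and 6.2% and 1.4% in the controls. Downstream of the start all libraries were at most 9.1%.

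*Il3ra* had its difference inside the gene and *Il6ra* far upstream. At *Il3ra* the bin from 500 to 750 bp past the start had 10.0% and 6.2% in Tet2+/+ and 31.0%, 41.1% and 25% in Tet2-/- blasts. At *Il6ra* the bin from 1000 to 750 bp upstream had 38.2% and 50% against 64.4%, 80% and 55.6%. *Kit* was between 0% and 7.4% in each library in all bins from 500 bp upstream to the downstream end. Its farthest upstream bin had 90.9% and 87.5% in Tet2+/+ and 100% in each Tet2-/- library, on 11 to 17 calls. The bin after it, left out for its 8 to 24 calls, had 37.5% and 33.3% against 50%, 54.5% and 55.6%. The farthest upstream bin of *Csf3r*, left out for its 2 to 36 calls, had 0% and 33.3% against 93.3%, 100% and 75.0% over 14 CpGs, while the bins on either side of the start were at most 3.8% in every library. Library 7 was thus also high in that bin, but it had only 12 of its 199 promoter calls there. Its level of 8.54% over the whole promoter rests mostly on the other bins. Upstream of *Csf2rb* 5 CpGs in the farthest bin had 0 calls in all libraries, and the only other calls upstream were 2, 1 and 1 in Tet2-/- libraries 5, 7 and 8, all methylated, so its promoter level rests mostly on the downstream side.

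**Figure D2:**
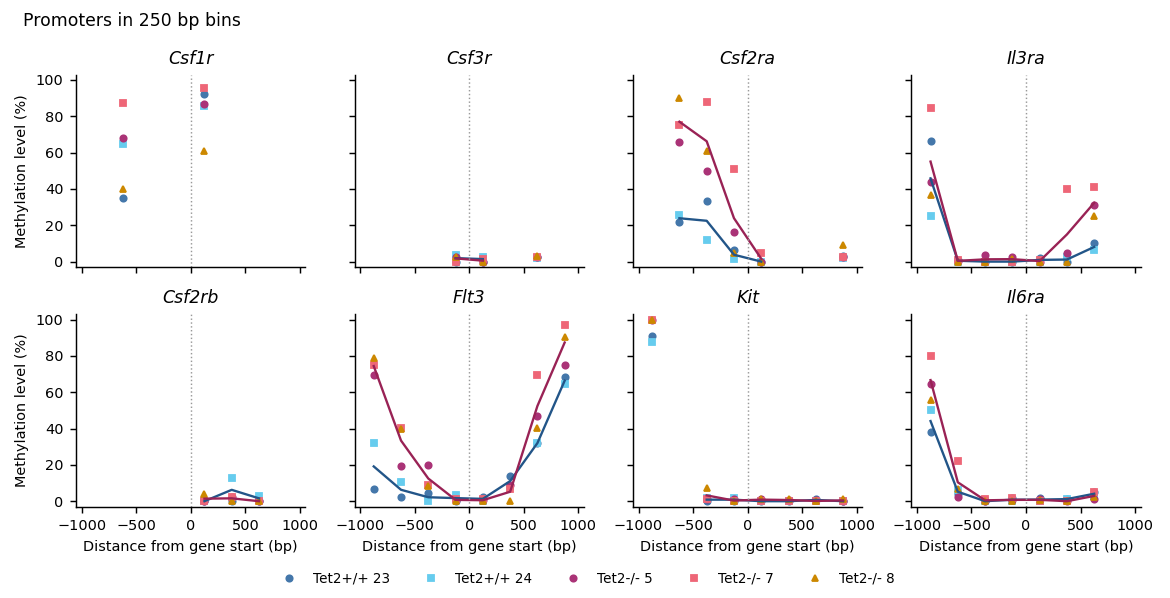
Methylation level (%, vertical axis) in 250 bp bins against the distance from the annotated gene start (bp, horizontal axis) for the 8 receptor genes, with a point for each library, a blue line for the Tet2+/+ mean and a red line for the Tet2-/- mean over bins with at least 10 calls in every library. At *Flt3* the lines meet near 0% at the start and part towards both edges, and at *Csf2ra* they part on the upstream side.

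The sequence around the start is shown for *Flt3*, where both genotypes were low, and for *Csf2ra*, where library 7 stood apart, in 300 bp each. They are the RefSeq promoters of *Flt3* (chr5:147400440-147400739, minus strand) and *Csf2ra* (chr19:61228369-61228668, minus strand) on GRCm38, from 250 bp before to 50 bp after the start, written from 5′ to 3′ on the strand of the gene with each CpG in capitals.
Flt3 promoter: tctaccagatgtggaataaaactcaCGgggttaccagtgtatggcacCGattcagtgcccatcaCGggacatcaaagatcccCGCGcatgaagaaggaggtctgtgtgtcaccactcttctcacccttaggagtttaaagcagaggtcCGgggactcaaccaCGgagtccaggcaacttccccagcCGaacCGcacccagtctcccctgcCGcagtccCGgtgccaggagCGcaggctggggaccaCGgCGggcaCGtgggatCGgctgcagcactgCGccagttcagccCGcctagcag
Csf2ra promoter: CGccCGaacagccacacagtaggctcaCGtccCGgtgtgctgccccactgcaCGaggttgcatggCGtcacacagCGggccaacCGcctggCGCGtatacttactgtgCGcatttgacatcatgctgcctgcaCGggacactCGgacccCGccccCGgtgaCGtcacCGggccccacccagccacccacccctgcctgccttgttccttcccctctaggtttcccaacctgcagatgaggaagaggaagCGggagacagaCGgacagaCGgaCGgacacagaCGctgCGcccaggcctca
The 18 CpGs of the *Flt3* stretch had 0% and 2.45% in Tet2+/+ and 0.541%, 1.10% and 0% in Tet2-/- blasts. In the *Csf2ra* stretch, with 23 CpGs, the levels were 3.96% and 0.943% against 9.80%, 26.7% and 2.06%, so that library 7 was the highest and library 5 also lay above both controls. RefSeq promoters were matched for 6 of the 8 genes. The letters GAGGAA, a core that ETS factors such as PU.1 bind, were found 2 times in the *Csf2ra* stretch on either strand and 0 times in the *Flt3* stretch, against 28.3% of 27025 RefSeq promoters with at least 1 match.

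In gene bodies, *Flt3* was the single receptor gene to pass the test. The call for 1 of 8 stands against 15.5% of 20715 gene bodies called higher in Tet2-/- blasts, and 4 of 8 bodies had no overlap between groups against 46.0% of all. The median difference was 5.25 points for the receptors and 4.95 points for all gene bodies tested, so that as a list the receptors were close to the background.

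Methylation over the body of *Flt3* (chr5:147330741-147400489, minus strand, gene ENSMUSG00000042817.15) was higher in the Tet2-/- libraries. The controls had 61.2% and 57.7%, and the Tet2-/- libraries had 68.7%, 73.4% and 70.3%, from 3180 to 5904 calls over 969 CpGs. Means were 59.4% ± 2.54 (SD, n = 2) and 70.8% ± 2.41 (SD, n = 3), and the groups did not overlap. The difference of 11.4 points had an adjusted p of 0.0280 in the edgeR quasi-likelihood test. In limma the adjusted p was 0.0951, and with the median of each library subtracted it was 0.331. Without the first 1 kb of the body the adjusted p was 0.0679 in edgeR, with a difference of 12.4 points. Leaving out library 23, 24, 5 or 8 also ended the call, with adjusted p of 0.0687, 0.480, 0.102 and 0.0530 in edgeR, while the difference stayed between 9.57 and 13.2 points.

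The bodies of the other receptors had higher mean levels in Tet2-/- blasts without passing the test, except *Csf2ra*. *Il3ra*, the ligand-binding subunit for IL3, had 65.5% and 60.5% in Tet2+/+ and 70.8%, 77.0% and 68.8% in Tet2-/- blasts (difference 9.20 points, adjusted p = 0.117, edgeR). *Csf3r* had 70.1% and 62.6% against 75.0%, 76.8% and 68.8%, which overlapped (7.18 points, adjusted p = 0.180, edgeR). *Csf2rb*, the shared subunit, had 71.9% and 65.8% against 69.7%, 78.7% and 75.4% (5.76 points, adjusted p = 0.231, edgeR).

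*Kit*, *Csf1r* and *Il6ra* differed by less than the median gene. *Kit* had 76.1% and 68.5% in Tet2+/+ and 76.7%, 78.2% and 76.2% in Tet2-/- blasts, with its gap of 4.74 points resting on the low level of library 24 (adjusted p = 0.368, edgeR). *Csf1r* had 68.0% and 67.7% against 69.4%, 75.9% and 67.9%, and *Il6ra* had 65.8% and 64.5% against 68.3%, 68.9% and 66.4%. Their adjusted p values were 0.514 and 0.629 in edgeR. Relative to the median of each library, the differences of *Kit*, *Csf1r*, *Il6ra* and *Csf2rb* turned slightly negative.

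The body of *Csf2ra* was set by a single library. Levels were 60.8% and 56.2% in Tet2+/+ and 59.9%, 25.2% and 72.4% in Tet2-/- blasts, a mean difference of -5.96 points that became 7.69 points without library 7. Library 7 was the lowest in 2 neighbouring windows. From 1 to 2 kb past the start (chr19:61226430-61227429, exons 2 to 5) 110 CpGs had 67.5% and 53.6% against 62.6%, 7.89% and 62.2%. Library 7 had 950 calls there and each of the others at most 409. In the next kilobase library 7 had 43.1% against 82.5% to 97.9% elsewhere, and in the third it was back with the others at 90.1%. Whether the extra calls and the low level share an origin was not tested.

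The 1 kb windows placed the differences inside the genes. Of 298 windows in the 8 genes 280 had at least 10 calls in every library, and 10 passed the edgeR quasi-likelihood test, all higher in Tet2-/- blasts. That share can be read beside 1.72% of 802887 windows in all genes. *Flt3* held 8 of its 64 tested windows, *Kit* 1 of 80, *Il6ra* 1 of 46, and *Csf1r*, *Csf2rb*, *Csf3r*, *Il3ra* and *Csf2ra* 0 of 30, 28, 18, 10 and 4. In these 5 genes 3, 4, 2, 4 and 0 windows had an unadjusted p under 0.05, against 14.1% of all windows. With no overlap between groups, 110 of the 280 windows were higher in Tet2-/- blasts and 5 lower, against 30.1% higher and 2.45% lower among all windows.

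**Figure D3:**
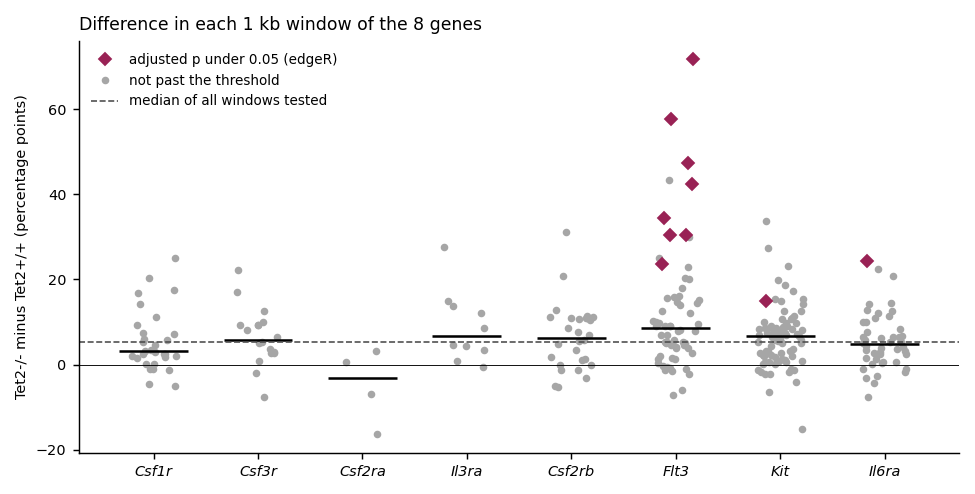
Difference in methylation (Tet2-/- minus Tet2+/+ group means, percentage points, vertical axis) of each tested 1 kb window, by receptor gene, with windows past the edgeR threshold as diamonds, the median of each gene as a black line and the median of all windows tested (5.34 points) dashed. The 4 highest diamonds belong to *Flt3*, between 42.4 and 71.7 points.

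Among all genes, *Flt3* ranked high by its called windows, which is given as a description. Its median window difference was 8.60 points against 5.34 points over all windows, and 57.8% of its windows had all Tet2-/- libraries above both controls. As many called windows were found in 246 of 20713 genes (1.19%), and as large a share of called windows in 390 of 13183 genes with at least 10 tested windows (2.96%). These ranks rest on the 8 calls of edgeR, of which 2 passed relative to the library medians (limma) and 2, at 13 and 48 kb, without library 24 (edgeR). A difference as large as the largest in *Flt3* was found in 59 of the 802887 windows.

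The largest difference lay 13 to 14 kb into the gene, in intron 1. Its 20 CpGs had 14.9% and 13.1% in the controls, against 83.9%, 93.5% and 79.5% in Tet2-/- blasts, on 39 to 112 calls. The interval was thus mostly unmethylated in the controls and mostly methylated in all 3 Tet2-/- libraries, a gap of 71.7 points (adjusted p = 5.04e-08, edgeR). The call held without any single library, with adjusted p of at most 1.03e-04, and relative to the library medians (adjusted p = 3.92e-04, limma). All 16 CpGs with at least 5 pooled calls in each group were higher in Tet2-/- blasts, a description since the window was chosen for its difference. The windows on either side had 70.4% and 71.9% in the controls and 63.4% and 89.8% in Tet2-/- blasts, so that the dip in the controls spanned about this window.

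Near the end of the gene 2 windows were called. From 67 to 68 kb, a window with exon 23 (chr5:147332490-147333489), levels were 41.3% and 19.7% in Tet2+/+ and 81.9%, 92.2% and 90.2% in Tet2-/- blasts (57.6 points, adjusted p = 2.80e-05, edgeR). From 69 kb to the end of the gene, in the final exon 24 (chr5:147330741-147331489), they were 34.0% and 25.7% against 82.6%, 68.1% and 66.04% (42.4 points, adjusted p = 0.00799, edgeR). The window between them went from 58.8% ± 5.18 (SD, n = 2) to 74.4% ± 0.962 (SD, n = 3) without passing (adjusted p = 0.541, edgeR). Both called windows were without overlap between the genotypes, and the first also passed relative to the library medians (adjusted p = 0.00848, limma), but not without library 24 (adjusted p = 0.0568, edgeR).

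In the middle of the gene intron 15 was the main site. At 48 kb (chr5:147351490-147352489), levels were 6.33% and 10.4% in Tet2+/+ and 30.1%, 75.0% and 62.1% in Tet2-/- blasts (47.4 points, adjusted p = 3.42e-04, edgeR). Library 5 gained less than the other Tet2-/- libraries but remained above both controls, and all 19 CpGs with enough calls were higher in Tet2-/- blasts. The call held without any single library, but not relative to the library medians (adjusted p = 0.0757, limma). The window before it had 50.6% and 51.5% against 67.7%, 93.1% and 82.4%, just outside the threshold (adjusted p = 0.0563, edgeR).

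Single windows with smaller gains lay in introns 1, 2 and 9. At 10 kb in intron 1 the levels were 52.8% and 52.7% in Tet2+/+ and 81.4%, 89.6% and 78.6% in Tet2-/- blasts (adjusted p = 0.0461, edgeR). Intron 2 held windows at 18 kb (76.8% and 65.5% against 92.3%, 97.6% and 94.3%) and at 22 kb (58.3% and 68.0% against 96.4%, 96.2% and 100%), with adjusted p of 0.00928 and 0.0368 in edgeR. The window at 22 kb held only 6 CpGs and had too few calls to be tested at a minimum of 20 per library. At 36 kb in intron 9, 56.3% and 46.9% stood against 75.0%, 94.5% and 76.9% (adjusted p = 0.0409, edgeR). The calls at 10 and 22 kb were lost without any 1 of the 5 libraries, at 18 kb without library 24 or 7, at 36 kb without any library but 5, and at 69 kb without library 23, 24 or 5. Of the CpGs with at least 5 pooled calls in each group, those higher in Tet2-/- blasts numbered 11 of 14 at 10 kb, 15 of 20 at 18 kb, 2 of 4 at 22 kb, 15 of 16 at 36 kb, 11 of 12 at 67 kb and 13 of 13 at 69 kb. Such counts, also those at 13 and 48 kb, pool the libraries of a group in windows chosen for their difference, and are no further test. None of the windows at 10, 18, 22, 36 and 69 kb passed relative to the library medians (adjusted p of 0.137 to 0.353, limma). Those at 10 and 36 kb also missed the threshold in limma without that step (adjusted p = 0.0908 and 0.0776). The same held on thinned counts (adjusted p = 0.0519 and 0.0597, edgeR).

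Other parts of *Flt3* stayed at low levels in both genotypes. At 7 kb in intron 1 the window with the lowest level had 2.53% and 2.33% in Tet2+/+ and 3.54%, 6.50% and 1.00% in Tet2-/- blasts, on 79 to 123 calls. At 34 kb in intron 9 the levels were 8.89% and 15.9% against 12.7%, 19.7% and 13.04%, and at 60 kb in intron 20 they were 7.25% and 15.5% against 15.7%, 18.7% and 15.9%. The low windows of the gene were therefore of both kinds, some with high levels and some with low levels in Tet2-/- blasts.

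**Figure D4:**
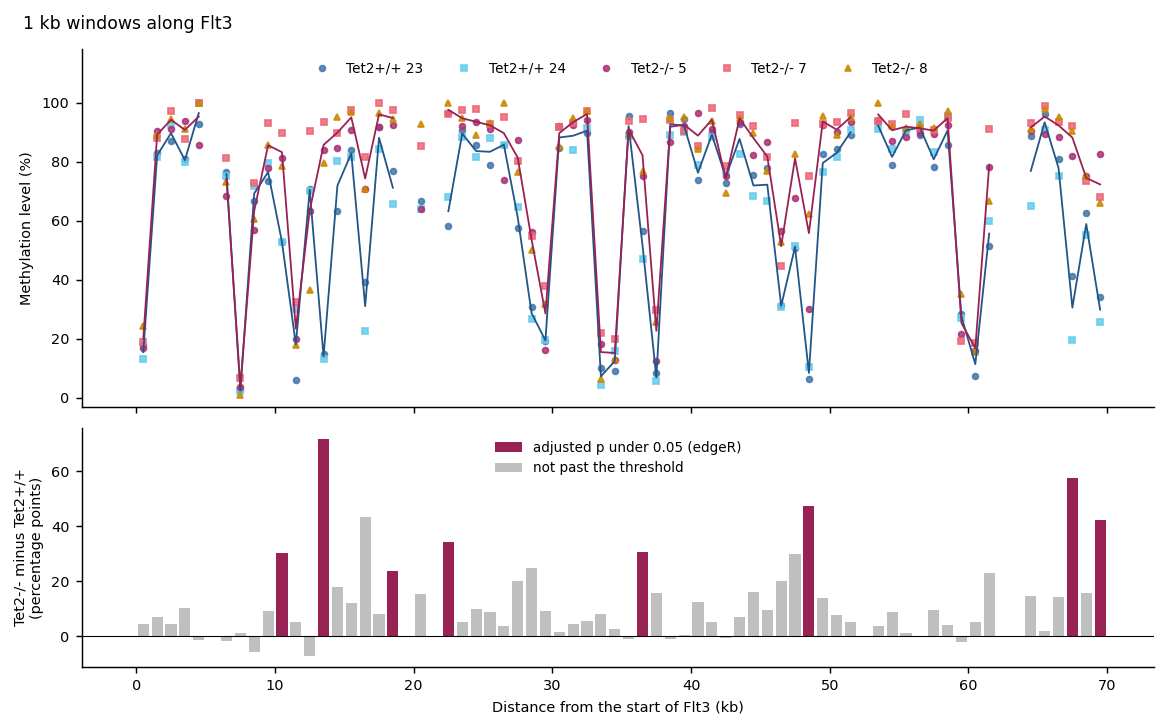
Upper panel: methylation level (%) of the tested 1 kb windows along *Flt3* against the distance from its start (kb), with a point for each library and lines for the group means (blue Tet2+/+, red Tet2-/-). Lower panel: the difference of the means (percentage points), with the 8 windows past the edgeR threshold in red. The blue line dips far below the red line at 13, 48 and 67 kb.

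The windows at 48 and 67 kb lie far from the start and had lower levels in both controls than in any Tet2-/- library. The 300 bp with most CpGs in each are shown, from the GRCm38 sequence on the minus strand (5′ to 3′ along the gene) with each CpG in capitals. They are chr5:147351770-147352069 at 48 kb and chr5:147332660-147332959 at 67 kb.
Flt3 window at 48 kb: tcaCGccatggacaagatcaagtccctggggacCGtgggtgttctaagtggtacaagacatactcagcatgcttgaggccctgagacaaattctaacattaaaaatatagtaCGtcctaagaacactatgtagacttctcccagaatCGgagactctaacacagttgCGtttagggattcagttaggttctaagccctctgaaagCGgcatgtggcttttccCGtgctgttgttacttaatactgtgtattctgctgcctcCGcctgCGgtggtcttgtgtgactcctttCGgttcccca
Flt3 window at 67 kb: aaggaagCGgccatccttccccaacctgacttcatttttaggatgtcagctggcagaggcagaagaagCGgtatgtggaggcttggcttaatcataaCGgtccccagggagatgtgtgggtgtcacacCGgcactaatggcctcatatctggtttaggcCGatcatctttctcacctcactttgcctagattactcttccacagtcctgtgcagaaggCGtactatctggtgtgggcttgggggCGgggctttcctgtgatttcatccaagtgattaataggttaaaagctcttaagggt
The 10 CpGs at 48 kb had 2.70% and 12.0% in the controls against 22.03%, 82.1% and 68.0% in Tet2-/- blasts, and the 7 CpGs at 67 kb had 33.3% and 13.04% against 80%, 91.5% and 90.9%. Both stretches hold fewer CpGs than the promoter of the gene shown before. On either strand, TTNNGNAA, the letters of the C/EBP consensus, occurred 1 time in each stretch, against 45.7% of 3810 stretches chosen in the same way from other tested windows.

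Without its 8 called windows, the rest of *Flt3* still had a gap between groups. The remaining 62 windows had 64.6% and 61.6% in Tet2+/+ and 67.7%, 71.3% and 69.2% in Tet2-/- blasts, a difference of 6.31 points, as a description since the windows that passed had been taken out. That gap was near the median difference over all gene bodies tested (4.95 points) and over all windows tested (5.34 points). In the called windows together the levels were 40.9% and 35.2% against 74.6%, 87.1% and 78.5%, also a description since these windows were chosen for their difference.

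*Kit*, the receptor for stem cell factor, had a single called window at the end of the gene. From 78 to 79 kb (chr5:75652916-75653915, exon 20) its level was 88.3% and 75.0% in Tet2+/+ and 97.5%, 95.7% and 96.7% in Tet2-/- blasts (adjusted p = 0.0363, edgeR). The window did not pass in limma (adjusted p = 0.0875), relative to the library medians (adjusted p = 0.323, limma) or on thinned counts (adjusted p = 0.0798, edgeR). The 14.97 points lay above already high control levels, and the call was lost without library 24, 5, 7 or 8 (adjusted p up to 0.867, edgeR).

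Intron 1 of *Kit* behaved differently from library to library. At 2 kb from the start (chr5:75576916-75577915) levels were 20.5% and 9.09% in Tet2+/+ and 58.0%, 14.7% and 72.5% in Tet2-/- blasts, and at 4 kb they were 38.3% and 21.1% against 71.6%, 30.1% and 69.6%. In both windows library 7 lay with the controls and libraries 5 and 8 far above them (adjusted p = 0.0746 and 0.204, edgeR). At 7 kb the order turned, with 77.4% and 70.4% against 58.7%, 65.8% and 52.2%, all 3 Tet2-/- libraries below both controls (adjusted p = 0.495, edgeR). These windows were singled out after their values were seen. At 1 kb the lowest window of *Kit* had at most 1.64% in any library.

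*Il6ra*, the ligand-binding receptor for IL6, had its called window at the 3′ end. From 48 to 49 kb (chr3:89864197-89865196, in the final exon 10) 14 CpGs had 3.70% and 4.71% in Tet2+/+ and 26.3%, 35.7% and 23.9% in Tet2-/- blasts, on 71 to 129 calls. All Tet2-/- libraries were several times above the controls, a gap of 24.4 points with an adjusted p of 0.00683 in edgeR and 0.0118 in limma. Without library 23 or 24 the adjusted p was 0.127 and 0.274, and relative to the library medians it was 0.231. The lowest window away from the start, at 1 kb in intron 1, had 0% in both controls and 12.0%, 4.44% and 2.70% in Tet2-/- blasts on 28 to 50 calls (adjusted p = 0.246, edgeR). The 95% Wilson intervals of the controls reached 12.1% and 10.4%.

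In the other genes the windows with the lowest levels were of several kinds. The lowest window of *Il3ra* beyond its first kilobase was the final one at 9 kb, with 48.8% and 62.0% in Tet2+/+ and 75.0%, 84.1% and 90.3% in Tet2-/- blasts (adjusted p = 0.143, edgeR). Its first kilobase had 4.57% and 2.59% against 14.98%, 31.3% and 5.67%, without overlap (adjusted p = 0.0633, edgeR). *Csf3r* at 1 kb had 7.69% and 2.22% against 12.7%, 10.96% and 18.8% (adjusted p = 0.396, edgeR).

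The lowest windows of *Csf1r* and *Csf2rb* away from the start overlapped between the genotypes. *Csf1r* at 5 kb from the annotated start, which holds the first exon of the coding transcript Csf1r-202 (chr18:61105598-61106597), had 13.2% and 10.2% in Tet2+/+ and 8.40%, 14.9% and 8.43% in Tet2-/- blasts. At its 3′ end the final window had 17.9% and 17.0% against 34.6%, 37.0% and 55.6%, with all Tet2-/- libraries above both controls but no call (adjusted p = 0.221, edgeR). *Csf2rb* at 1 kb had 33.3% and 15% against 12.2%, 38.7% and 24.6%. Coverage within 250 kb of *Csf2rb* was 1.498 and 1.36 times the library mean in Tet2+/+ and 1.81, 1.85 and 1.86 times in Tet2-/- blasts, and over chromosome 15 as a whole it was 1.25 and 1.07 against 1.39 to 1.43. The other receptor loci had 0.841 to 1.24 times. *Csf2rb* shares 6.38% of its 75 bp stretches with its neighbour *Csf2rb2*, and the effect of this on its calls was not tested.

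The receptor windows were also set beside all windows of similar methylation level. By the mean of all 5 libraries, 63.2% of the tested receptor windows were at 80% or above, against 53.6% of all windows. In the range from 50% to 80%, 5 of 64 receptor windows were called (7.81%), against 3.24% of all windows in that range. All 5 were in *Flt3*, where they made up 31.2% of 16 windows, and the other 7 receptors had 0 of 48. The level and the call come from the same counts, so these shares are a description.

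By likeness of levels over the 5 libraries, the promoters nearest to that of *Csf2ra* were those of *Ccdc155*, *Nbas* and *Ganab*. Their root mean square differences from it were 2.19, 2.53 and 2.72 points, and 102 promoters lay within 5 points. *Ccdc155*, the nearest, had 8.82% and 4.76% in Tet2+/+ and 16.8%, 29.5% and 14.4% in Tet2-/- blasts.

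Genes that act with the receptors were described by the same measures. No promoter among 8 ligands, 16 related receptors, 16 signal transducers and 12 tested inhibitors of signalling passed the edgeR quasi-likelihood test, with 3, 3, 2 and 2 at an unadjusted p under 0.05 (18.1% of all promoters) and 0 by limma or the likelihood ratio test. The median promoter difference was 6.71 points for ligands, 5.74 for related receptors, 0.21 for transducers and 0.52 for inhibitors, against 2.22 for all promoters.

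Among gene bodies, those of related receptors were called most often among the 4 lists in the edgeR quasi-likelihood test. With 15.5% of all gene bodies called, 7 of 16 related receptors, 2 of 8 ligands, 2 of 16 transducers and 0 of 13 inhibitors passed as higher, and none as lower. limma, with 2.33% of all gene bodies called higher, called 0 related receptors, 1 ligand and 0 transducers, and no gene body of the 4 lists was called relative to the library medians (limma) or without Tet2+/+ library 24 (edgeR). Over all gene bodies, limma called 5 of 20715 higher relative to the library medians, and edgeR also called fewer without library 24. Beside the pathway, edgeR called the bodies of 5 of 6 T cell, 5 of 13 myeloid, 3 of 5 non-hematopoietic, 2 of 3 erythroid, 2 of 5 B cell, 2 of 5 mast cell and basophil and 0 of 5 pan-hematopoietic markers. Among the related receptors called by edgeR were *Ifngr1*, the interferon gamma receptor, from 43.8% ± 13.5 (SD, n = 2) to 65.9% ± 9.39 (SD, n = 3), and *Il6st*, the signal transducer that pairs with IL6RA, from 65.8% ± 10.8 to 81.3% ± 1.79. Their adjusted p values were 7.2e-05 and 2.4e-04 in edgeR. *Csf2rb2*, the neighbour of *Csf2rb*, differed by 4.19 points without passing (adjusted p = 0.256, edgeR).

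The ligands called by edgeR were *Csf3* (64.3% ± 3.10 to 84.97% ± 4.78), which encodes the ligand of CSF3R, and *Il34* (54.1% ± 9.95 to 72.4% ± 5.73), a ligand of CSF1R, with adjusted p of 0.00604 and 3.7e-04 in edgeR. limma called 1 ligand, and 0 passed relative to the library medians (limma). *Flt3l* and *Kitl*, which encode the ligands of FLT3 and KIT, differed by -0.92 and 3.45 points (adjusted p = 0.948 and 0.562, edgeR). Of the transducers *Fes*, a kinase of myeloid cells, differed by 11.1 points (adjusted p = 0.0492, edgeR), just inside the threshold and not called by limma or relative to the library medians. Of the inhibitors, such as *Socs1*, *Socs3* and *Cish*, 2 had an unadjusted p under 0.05 (29.2% of all gene bodies), and limma and the likelihood ratio test, which called 16.9% of all higher, also called 0. Whether the lists differ from each other was not tested.

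**Figure D5:**
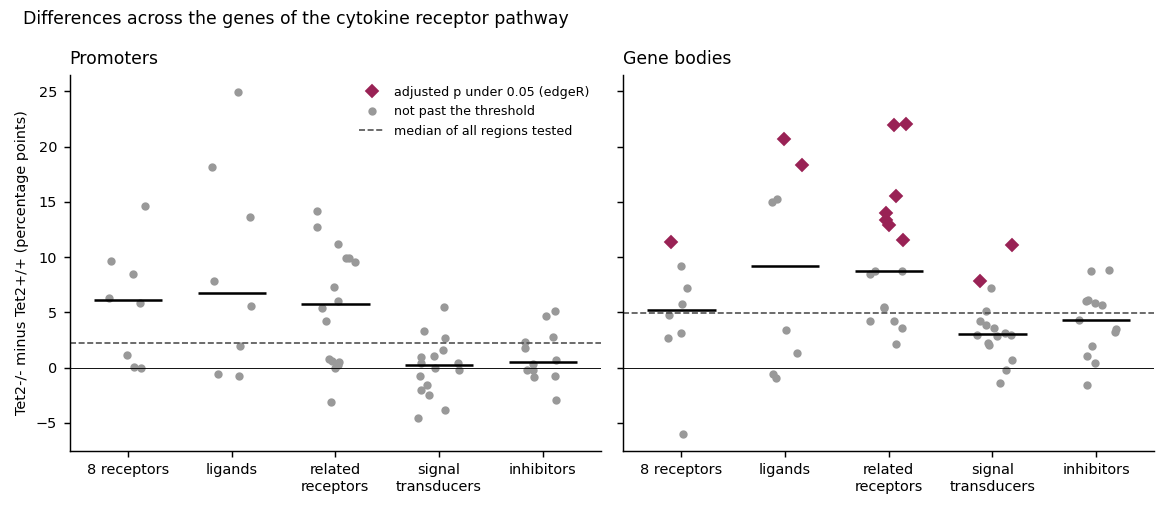
Difference in methylation (Tet2-/- minus Tet2+/+, percentage points, vertical axis) of promoters (left) and gene bodies (right) for the 8 receptors and 4 lists of genes that act with them, with called genes as diamonds, list medians as black lines and the median of all regions tested dashed. No promoter is called, and 7 of the related receptors are called in their gene bodies.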

How the data were processed

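The deposited files list, for each cytosine in CpG context of GRCm38, counts of methylated and unmethylated calls, which are not normalized. Per the labels, the authors made the libraries with a post-bisulfite kit, and the submitters' processing notes name FastQC 0.11.7, Trim Galore 0.4.3, Bismark 0.19.1 and Bowtie2. The calls of both strands were summed per CpG and region. Regions were tested with edgeR 4.0.16 (quasi-likelihood, R 4.3.3) over all protein-coding genes with at least 20 calls per library (10 for windows), with a coefficient per library and Benjamini-Hochberg adjustment. Alternatives were limma 3.58.1 on log2 of methylated over unmethylated calls (2 added to each), the likelihood ratio test, other minimums, region sizes and thinned counts, and leaving out each library. The scripts were tested on simulated data. Single levels were compared by a two-sided exact permutation test over 10 splits, which cannot give less than 0.1. Intervals cover counting error only.

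The members, lists and tests were chosen with earlier results of these data known. The text names all 8 receptors, each called window, the lowest window per gene, list genes that passed (up to 3 per list, of which some are not reported here) and the 3 promoters nearest to that of *Csf2ra*, and other genes or windows were named after their values were seen.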

Additional observations from a re-analysis of the deposited data

How the results depend on the processing

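Called windows kept their direction in all alternatives run for them, and so did the body of *Flt3*. In each of them the groups did not overlap, so leaving out any single library could not change the sign. The other alternatives reuse the same calls, so the kept direction is no further test. Under the alternatives 15 counts moved by over 1.5 times, and they are given here with the whole range over the libraries left out. The receptor windows called (10) were 6 on thinned counts, 2 relative to the library medians and 2 to 7 leaving out each library, with 2 without Tet2+/+ library 24. For receptor gene bodies called (1) they were 0 in limma, 0 relative to the library medians, 0 without the first 1 kb of the body, and 0 to 1 leaving out each library. For receptor promoters called (0), the likelihood ratio test gave 2. The gene bodies called in the pathway lists (11) became 0 relative to the library medians and 0 to 11 leaving out each library, with 0 without library 24. Subtracting library medians moved log2 differences by 0.45 in promoters, 0.42 in gene bodies and 0.62 in windows. Over all genes, limma called 10437 of 802887 windows higher, and 1420 with the medians subtracted. The receptor windows called by limma went from 8 to 2 by the same step. On thinned counts edgeR called 10432 of 733260 windows higher, against 13824 of 802887 in the main test, and it also called fewer without library 24. Calls were thus lost over all windows as well, and whether the receptors differ in this was not tested.

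The differences that changed sign had not passed the test. At promoters these were *Csf1r* (-0.63 to 10.2 points leaving out each library, -0.63 without Tet2-/- library 7, -0.59 with 500 bp on each side), *Csf2ra* (-0.016 points with 2000 bp), *Csf2rb* (1.56 on thinned counts, -2.19 to 2.10 leaving out each library, 2.10 without Tet2+/+ library 24, 0.32 without Tet2-/- library 7), *Flt3* (-1.03 with 500 bp), *Kit* (-0.35 on thinned counts, -0.22 without library 23, -0.67 without library 8, up to 0.78 without library 7, log2 -0.072 in limma and -0.52 relative to library medians) and *Il6ra* (-0.41 with 500 bp, log2 -0.16 relative to library medians). Around other annotated starts the sign also changed at Csf2ra-207 (-8.68 points, with library 7 apart at 7.10%), at 4 starts of *Csf1r* (-2.16 to -0.95) and at Csf2rb-201 (1.49), as values with no test. In gene bodies they were *Csf2ra* (7.69 without library 7) and, relative to library medians on the log2 scale, *Csf1r* (-0.19), *Csf2rb* (-0.0016), *Kit* (-0.069) and *Il6ra* (-0.25). Without Tet2-/- library 8 the body of *Csf2ra* passed at -15.9 points (adjusted p = 0.0124, edgeR). The causes were not tested. No paired analysis was possible because the groups share no replicate number. At 2.96 to 5.19 calls per CpG, windows with few CpGs can show large differences alone.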
